A study of Rattus norvegicus and Mus musculus with 24 samples.

Results

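A set of 8 podocyte genes was followed by symbol in bulk RNA sequencing of Ctns WT and Ctns KO rodent kidneys: NPHS1, PODXL, SYNPO, WT1, PLA2R1, TRPC6, PTPRO and CD2AP. There were 17376 symbols for mice and 14931 for rats, all 8 genes were present in both, and all 8 passed the filter on low values in every comparison. CTNS encodes cystinosin, which exports cystine from the lysosome and is mutated in cystinosis. Each of 24 animals gave 1 library: in mice (C57BL/6 background) 4 were Ctns KO and 4 Ctns WT, and in rats (Sprague-Dawley background) each genotype had 8, with littermates as controls. No other allele or agent is named for any group, and the age of the sequenced animals and the sex of the sequenced rats are not given with the libraries. The rats carried the numbers 17 to 32 in their titles, with the even numbers KO and the odd numbers WT, so that the ranges 17 to 24 and 25 to 32 each held 4 rats of each genotype; the labels do not say what the ranges stand for.

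Podocytes are the epithelial cells that wrap the capillaries of the glomerulus. Their interdigitating foot processes are bridged by the slit diaphragm, a junction built on nephrin (NPHS1) and tied by the adaptor CD2AP to an actin skeleton organized by synaptopodin (SYNPO), while podocalyxin (PODXL) gives the apical surface its negative charge. WT1 is the transcription factor that maintains the podocyte state, PTPRO is an apical receptor tyrosine phosphatase, TRPC6 is a calcium-permeable channel mutated in inherited glomerulosclerosis, and PLA2R1 is the receptor targeted by autoantibodies in membranous nephropathy. The tissue was labelled kidney cortex and also proximal tubule cells. The proximal tubule list summed to between 6223 and 19613 CPM, read counts scaled to library size, per animal. Podocyte genes were present too: the 8 members summed to between 492 and 1047 CPM, so glomerular RNA was in every library. A list of endothelial genes, named for the glomerulus but not confined to it, summed to between 555 and 836 CPM.

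The bases just before the annotated start are shown for 4 genes whose rat levels moved together between number ranges, as described below; SYNPO, which moved with them, is left out because its rat reads were shared with another symbol. They are the 250 bases upstream of the RefSeq start in the rat build GRCr8, 5′ to 3′, and capitals mark GGGCGG (the GC box) on either strand; neighbouring matches may share a base.
Nphs1, chr1:94848011-94848260, plus strand: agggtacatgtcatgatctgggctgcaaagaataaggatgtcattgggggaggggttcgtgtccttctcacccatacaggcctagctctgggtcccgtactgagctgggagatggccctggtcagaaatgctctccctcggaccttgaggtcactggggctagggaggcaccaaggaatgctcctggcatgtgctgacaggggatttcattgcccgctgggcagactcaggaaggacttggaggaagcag
Podxl, chr4:61149132-61149381, minus strand: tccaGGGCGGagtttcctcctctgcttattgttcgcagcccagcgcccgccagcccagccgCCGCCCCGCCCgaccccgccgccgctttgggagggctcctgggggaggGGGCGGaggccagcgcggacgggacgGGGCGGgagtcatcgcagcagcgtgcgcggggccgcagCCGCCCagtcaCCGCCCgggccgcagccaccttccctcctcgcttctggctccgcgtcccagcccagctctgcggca
Ptpro, chr4:171895261-171895510, plus strand: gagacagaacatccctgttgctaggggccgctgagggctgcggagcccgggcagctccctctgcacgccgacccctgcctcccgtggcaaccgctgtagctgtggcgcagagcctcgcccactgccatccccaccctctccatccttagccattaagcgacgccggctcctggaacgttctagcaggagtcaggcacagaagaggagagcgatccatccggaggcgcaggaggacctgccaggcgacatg
Wt1, chr3:112021759-112022008, plus strand: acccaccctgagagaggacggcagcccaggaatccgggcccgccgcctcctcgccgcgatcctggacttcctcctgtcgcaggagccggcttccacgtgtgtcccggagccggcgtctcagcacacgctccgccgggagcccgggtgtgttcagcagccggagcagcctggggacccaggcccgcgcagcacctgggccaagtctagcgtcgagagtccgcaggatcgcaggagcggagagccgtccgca
A sequence was found for all 8 members, among 33469 promoters. GGGCGG was matched 7 times before Podxl, 2 times each before Synpo and Pla2r1, and not in the windows of the other 5 members, against 30.5% of all promoters with at least 1 match. The WT1 and EGR1 consensus GCGGGGGCG was found before Cd2ap among the 8 (2.45% of all promoters), and the WT1 variant GCGTGGGAG before none of them (0.338%). The E-box CANNTG, bound by TCF21 and related factors, was found 4 times before Cd2ap, 2 times each before Wt1 and Pla2r1 and 1 time before Nphs1 (65.5% of all promoters). Of the 4 motifs searched, none was in all 4 windows shown, and GC content ranged from 57.2% before Nphs1 to 76.4% before Podxl.

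The mouse libraries held between 19309371 and 44449845 reads and the rat libraries between 24684097 and 40629873. CTNS itself was 0.363 times its WT level in KO mice (log2 fold change −1.46, SE 0.077, adjusted p = 1.72e-07), with no overlap between genotypes. In rats the transcript was still present in KO animals, at 16.8 to 22.2 CPM against 19.2 to 27.8 CPM in WT rats (log2 fold change −0.22, adjusted p = 0.0511), so its level does not separate the genotypes of single rats. Rat levels are given as CPM scaled by TMM, which sets the bulk of genes equal between libraries. The TMM-scaled library size was 0.89 to 0.952 times the read total in WT rats 25 to 32 and 0.993 to 1.08 times in the other 12 rats. Read totals alone shifted the median log2 change of all genes tested to 0.15 for KO against WT in rats 25 to 32 and to −0.12 for WT rats 25 to 32 against 17 to 24. The calls higher and lower then went from 2534 and 2566 to 4252 and 1135 in the first, from 1386 and 1117 to 703 and 2450 in the second, and from 1760 and 1420 to 2644 and 687 for all rats. Changes are therefore relative to the bulk of genes. In such samples fewer podocytes and less RNA per podocyte cannot be told apart.

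In the mouse kidneys the levels of every podocyte member overlapped between genotypes, and none passed the test. Levels per length could be compared between genes in the mouse, as RPKM, which divides reads by library size and by exon length (GENCODE vM21, build GRCm38). In WT mice (n = 4) PODXL stood highest at 88.1 ± 4.43 (SD), followed by SYNPO at 13.3 ± 0.928 and NPHS1 at 12.7 ± 0.878, which did not differ beyond their spread. CD2AP at 7.16 ± 0.799 and PTPRO at 6.3 ± 0.734 came next and also overlapped. WT1 had 3.41 ± 0.751, PLA2R1 0.342 ± 0.0513 and TRPC6, the lowest, 0.0787 ± 0.0356. These genes lie in GRCm38 at chr6:31519488-31563981 (Podxl), chr7:30458315-30487223 (Nphs1), chr17:42792951-42876665 (Cd2ap), chr6:137252319-137463233 (Ptpro), chr2:105126529-105173616 (Wt1), chr2:60417543-60553308 (Pla2r1) and chr9:8544142-8680741 (Trpc6). Exons of Nphs1, Pla2r1 and Trpc6 share bases with genes of the opposite strand, and whether the counting used strand is not given in the sources used here. In the rat annotation GRCr8, Podxl, Ptpro and Trpc6 overlap with a pseudogene or a long noncoding RNA.

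Among the junction proteins, NPHS1 had deposited values (reads relative to the 75th percentile of the library) of 1.84, 1.96, 1.62 and 1.73 in the 4 WT mice and 1.73, 1.76, 1.94 and 1.82 in the 4 KO mice. The genotypes overlapped fully, and the log2 fold change was 0.023 (95% interval −0.13 to 0.17, adjusted p = 0.894). CD2AP had 2.26, 2.86, 2.29 and 2.26 in WT and 2.67, 2.35, 2.96 and 2.76 in KO mice, a log2 fold change of 0.15 (interval −0.041 to 0.35, adjusted p = 0.364). Of the WT mice, 3 lay below every KO mouse, and the other WT mouse lay among them.

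PODXL had 10.9, 10.5, 9.56 and 10.2 in WT mice and 9.38, 9.97, 10.5 and 9.78 in KO mice. The genotypes overlapped, with a log2 fold change of −0.054 (interval −0.20 to 0.096). SYNPO ranged from 2.51 to 2.89 in WT and from 2.57 to 2.89 in KO mice, and its log2 fold change was 0.023 (interval −0.12 to 0.16). PTPRO differed by 0.035 (interval −0.22 to 0.29) and WT1 by −0.037 (interval −0.34 to 0.27), WT1 being the more variable, from 0.355 to 0.56 among WT mice. The lowest genes were bounded less closely: PLA2R1, with 54 to 132 reads, differed by −0.023 (interval −0.37 to 0.33), and TRPC6, with 6 to 16 reads, by 0.0053 (interval −0.87 to 0.88). A change of TRPC6 within that interval was not detectable at this depth.

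**Figure D1:**
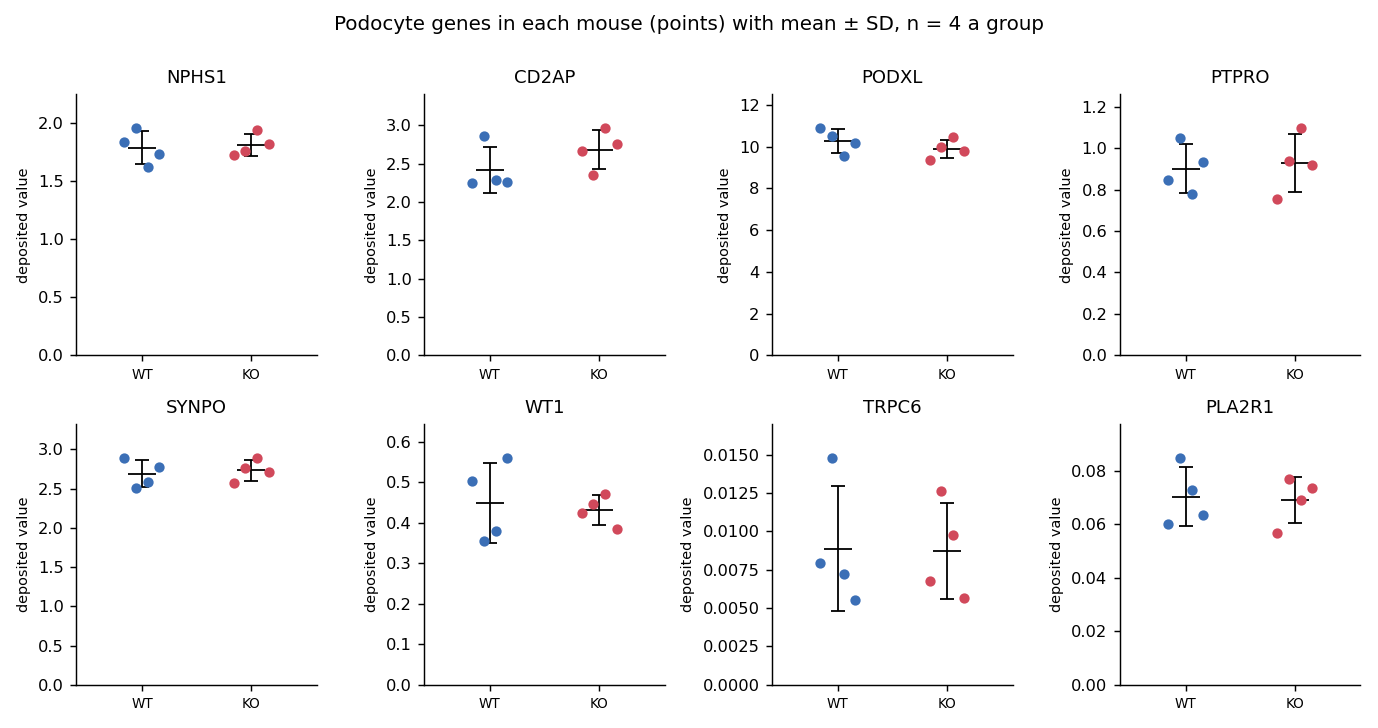
Deposited value (reads relative to the library's 75th percentile, y axis from 0) of the 8 members in each of 4 WT (blue) and 4 KO (red) mice, with mean and SD in black. The genotypes overlap in every panel.

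Thus 0 of 8 members passed the limma test in mice, where 8.65% of 13392 symbols did (2900 at an unadjusted p under 0.05, and none of the members). The median log2 change of the members was 0.014, beside 0.011 over all symbols tested. edgeR and DESeq2 on the recovered reads also called 0. Of 37 further podocyte genes tested, from lists of slit diaphragm, cytoskeleton, adhesion and basement membrane, transcription, and surface genes, 4 rose and 0 fell. FAT1, a large cadherin of the slit diaphragm, rose by 0.39 (adjusted p = 0.00574), AGRN, the basement membrane proteoglycan agrin, by 0.34 (0.0356), KIRREL1, the nephrin-binding protein Neph1, by 0.29 (0.0363) and ITGA3, the integrin chain that binds laminin, by 0.27 (0.0199). None of the 4 is confined to podocytes. The summed macrophage list stood at 182 to 211 CPM in KO and 116 to 126 CPM in WT mice (6 of 6 tested members higher), and the parietal epithelium list at 140 to 166 against 89.5 to 105 CPM (3 of 5 higher). The mesangial list summed to 204 to 249 CPM in KO and 134 to 183 CPM in WT mice, with 2 of 6 higher. Whether the genes of these lists are confined to the cells they are named for was not tested. The part of these cells in the 4 changes was not tested either.

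Over all 16 rats, 1 of 8 members passed the edgeR test, TRPC6, where 27.5% of 11584 symbols did. The lowest, median and highest TRPC6 levels were 3.14, 3.47 and 4.71 CPM in 8 WT rats and 3.46, 4.82 and 5.55 CPM in 8 KO rats (87 to 179 reads). The genotypes overlapped, and the level in KO rats was 1.26 times that in WT rats (log2 fold change 0.34, SE 0.12, interval 0.08 to 0.60, adjusted p = 0.0483). The call was at its limit: it was lost with limma-voom (adjusted p = 0.0504), without a filter on low counts (0.0579) and when any 1 of 11 rats was left out (WT 17, 19, 21, 23, 25 and 31, KO 22, 26, 28, 30 and 32; highest adjusted p = 0.0982). It held with DESeq2 (adjusted p = 0.0321). In edgeR it held with DESeq2 size factors (0.049), read totals (0.014) or the number range as a covariate (0.0167). The direction was the same in each range, with log2 fold changes of 0.31 (adjusted p = 0.274) in rats 17 to 24 and 0.37 (0.0661) in rats 25 to 32. The macrophage list summed to 147 to 377 CPM in KO and 89.3 to 161 CPM in WT rats, with 5 of 6 tested genes higher, and its part in the TRPC6 difference was not tested.

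The other 7 members did not pass over all 16 rats. CD2AP differed by 0.061 and the remaining 6 by −0.14 to −0.24, with standard errors of 0.16 to 0.19, and the median of all 8 was −0.17 beside −0.020 over all symbols. With the number range as a covariate 4 members were called, TRPC6 higher and PODXL (−0.21, adjusted p = 0.0179), WT1 (−0.24, 0.012) and PTPRO (−0.17, 0.0141) lower. Over all symbols, 4443 of 11584 were called with that covariate. The spread within each genotype was wide. NPHS1, with 101, 160 and 220 CPM as lowest, median and highest level in WT rats, had 89.6, 145 and 195 CPM in KO rats, and within either genotype its 4 lowest rats were those of the range 25 to 32.

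**Figure D2:**
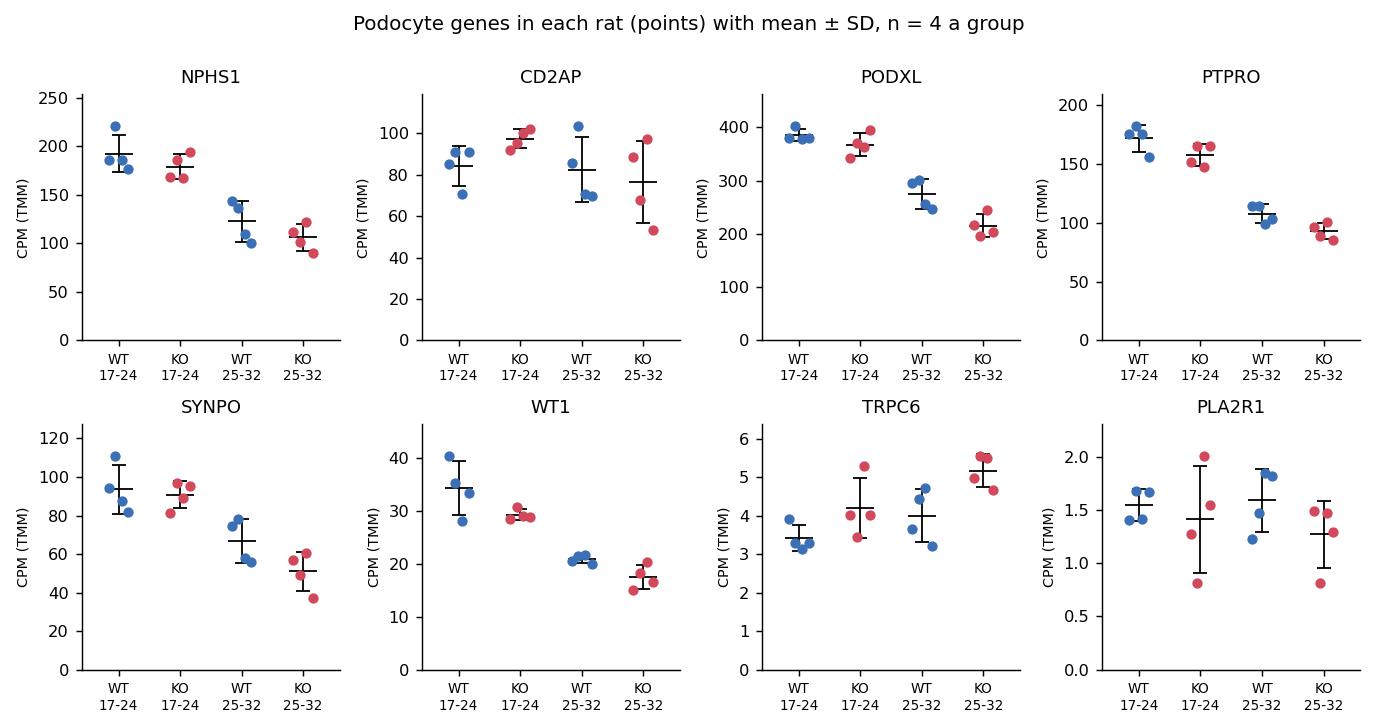
Level (CPM scaled by TMM, y axis from 0) of the 8 members in each rat, by genotype (WT blue, KO red) and number range, with mean and SD of 4 rats in black. NPHS1, PODXL, PTPRO, SYNPO and WT1 are lower in rats 25 to 32 of both genotypes, and CD2AP and PLA2R1 are not separated.

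The widest differences of the 8 members in rats lay between the number ranges. In WT rats, 5 of 8 members were lower in rats 25 to 32 than in rats 17 to 24, where 21.1% of 11839 symbols passed the test in either direction, and in KO rats the same 5 members were lower, where 47% passed. The genes were nephrin, podocalyxin, synaptopodin, WT1 and PTPRO. In each, and within either genotype, the 4 rats of one range did not overlap with the 4 of the other. How many of all symbols were separated in this way was not counted. The comparison in KO rats was added after the data had been seen.

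NPHS1 had 186, 220, 186 and 177 CPM in WT rats 17 to 24 and 144, 136, 110 and 101 CPM in WT rats 25 to 32. In KO rats it had 168, 186, 168 and 195 CPM and then 111, 101, 122 and 89.6 CPM. Every rat of 25 to 32 lay below every rat of 17 to 24 of its genotype, at 0.638 times the level in WT (log2 fold change −0.65, SE 0.11, adjusted p = 0.000607) and 0.591 times in KO rats (−0.76, SE 0.11, adjusted p = 8.28e-05).

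PODXL, the surface sialoprotein, had 381, 402, 379 and 380 CPM in WT rats 17 to 24 and 295, 302, 256 and 247 CPM in WT rats 25 to 32. In KO rats the levels were 343, 372, 363 and 394 CPM and then 217, 196, 246 and 203 CPM. The 4 WT rats of the first range lay close together, at 386 ± 11 CPM (SD, n = 4). The level was 0.714 times as high in WT rats (log2 fold change −0.49, SE 0.077, adjusted p = 0.000246) and 0.585 times in KO rats (−0.77, SE 0.078, adjusted p = 1.72e-06).

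PTPRO, the apical phosphatase, had 175, 182, 175 and 156 CPM in WT rats 17 to 24 and 114, 115, 98.8 and 103 CPM in WT rats 25 to 32. KO rats had 152, 166, 148 and 166 CPM and then 96.2, 88.8, 101 and 85.5 CPM. It had the smallest adjusted p of the members in either genotype, with log2 fold changes of −0.67 in WT (SE 0.070, adjusted p = 3.95e-06) and −0.77 in KO rats (SE 0.070, adjusted p = 7.07e-07).

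WT1, the transcription factor, had 40.3, 35.2, 28 and 33.3 CPM in WT rats 17 to 24 and 20.5, 21.5, 21.7 and 19.9 CPM in WT rats 25 to 32. KO rats had 28.4, 30.7, 29.1 and 28.7 CPM and then 15.0, 18.2, 20.3 and 16.5 CPM. The change was −0.71 in WT (SE 0.099, adjusted p = 7.85e-05) and −0.74 in KO rats (SE 0.10, adjusted p = 3.19e-05).

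SYNPO, the actin organizer, had 94.1, 111, 87.3 and 81.9 CPM in WT rats 17 to 24 and 74.5, 78.4, 57.9 and 55.7 CPM in WT rats 25 to 32. KO rats had 81.4, 96.8, 89.3 and 95.5 CPM and then 56.9, 49.4, 60.4 and 37.5 CPM. The change was −0.49 in WT (SE 0.14, adjusted p = 0.0209) and −0.83 in KO rats (SE 0.14, adjusted p = 0.000306), and the WT call was lost without WT rat 19, 29 or 31 (largest adjusted p = 0.0752). SYNPO is uncertain in the rat, because its reads were identical to those listed for MYOZ3, a muscle gene, in all 16 rats. In the mouse, where the rows differ, MYOZ3 had 1 read in 1 mouse and 0 in the other 7.

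The remaining members were not called. CD2AP differed between ranges by −0.030 in WT (interval −0.37 to 0.31) and by −0.35 in KO rats (interval −0.68 to −0.012, adjusted p = 0.082). PLA2R1, with 24 to 57 reads, differed by 0.038 in WT (interval −0.47 to 0.55) and −0.15 in KO rats (interval −0.67 to 0.38). TRPC6 differed in the other direction, by 0.24 (adjusted p = 0.284) and 0.30 (0.0965).

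**Figure D3:**
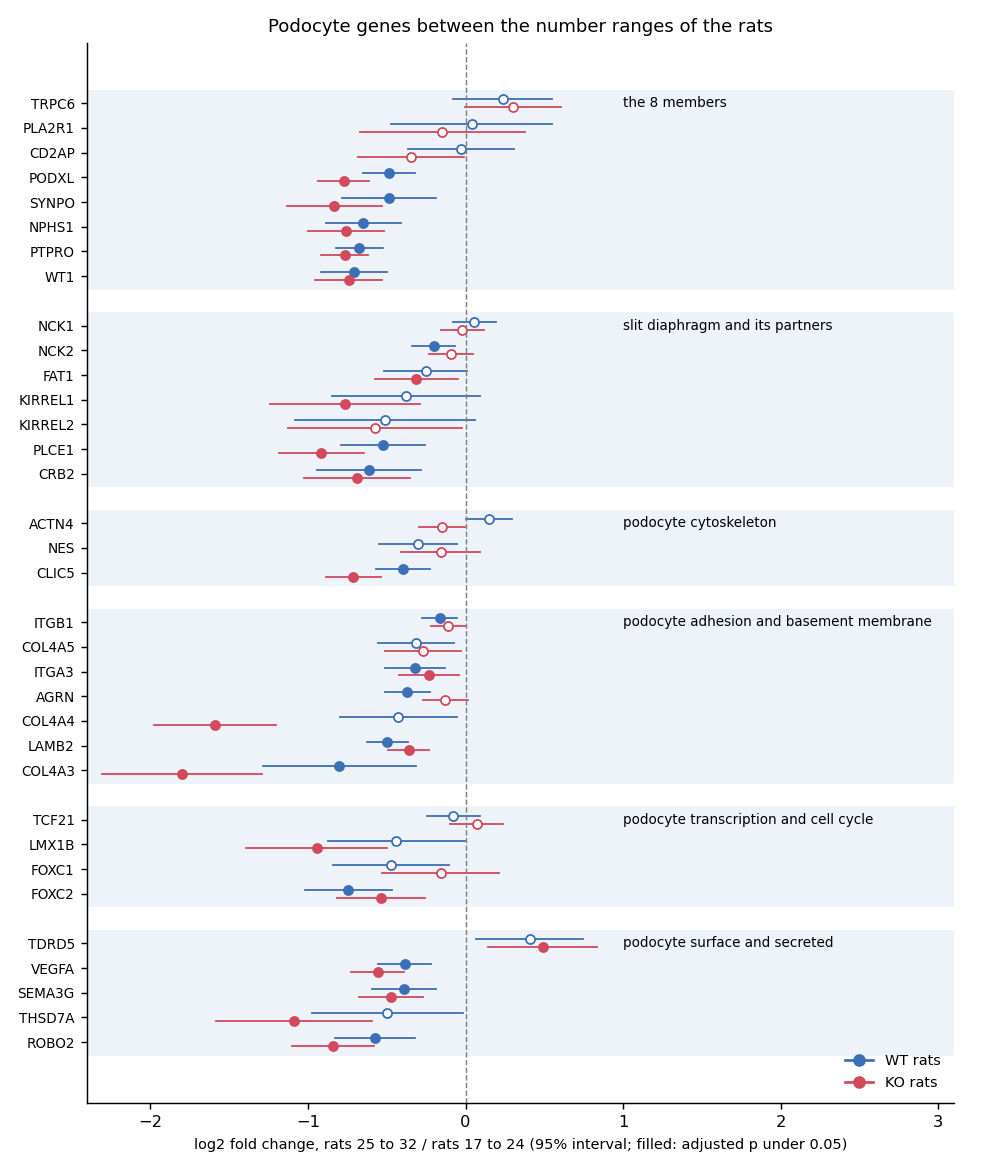
Log2 fold change of rats 25 to 32 over rats 17 to 24 (x axis, lines are 95% intervals) for the 8 members and further podocyte genes, by list, in WT (blue) and KO (red) rats, with filled points at an adjusted p under 0.05. Most points lie left of 0; TRPC6 and TDRD5 lie to the right in both genotypes.

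Other podocyte genes differed between the ranges too. Of 28 tested, 14 were lower and 0 higher in WT rats 25 to 32, with a median of −0.39 beside 0.011 over all symbols, and 16 were lower and 1 higher in KO rats, with a median of −0.42 beside 0.0067. Over all symbols 21.1% were called in WT and 47% in KO rats, in either direction, so the share called in KO rats, 17 of 28, was nearer to that of all symbols. In the slit diaphragm list CRB2, a polarity protein, changed by −0.61 in WT and −0.69 in KO rats and PLCE1, a phospholipase mutated in nephrotic syndrome, by −0.52 and −0.91. NCK2, an adaptor of nephrin, was lower in WT rats (−0.20), and KIRREL1 (−0.76) and FAT1 (−0.31) in KO rats. In the cytoskeleton list only CLIC5, a chloride channel family protein of foot processes, passed of 3 tested, by −0.40 and −0.71.

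The basement membrane genes included the steepest changes. COL4A3, one of the collagen IV chains that podocytes lay down in the glomerular basement membrane, changed by −0.80 in WT (adjusted p = 0.0203) and −1.80 in KO rats (4.21e-05), and its partner COL4A4 by −1.59 in KO rats (1.01e-05). LAMB2, a laminin chain of the same membrane, changed by −0.50 and −0.36 and ITGA3 by −0.32 and −0.23. AGRN passed in WT rats (−0.37). Of the transcription factors FOXC2 changed by −0.74 and −0.54 and LMX1B by −0.95 in KO rats. Of the surface and secreted genes ROBO2 changed by −0.58 and −0.84 and VEGFA by −0.38 and −0.56. SEMA3G changed by −0.39 in WT rats and was also called lower in KO rats. THSD7A, another antigen of membranous nephropathy, changed by −1.09 in KO rats. TDRD5 was the gene higher in KO rats (0.49).

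Genes of lists named for other cells moved with the range as well. Of 9 endothelial genes, not all confined to the glomerulus, 5 were lower in WT rats 25 to 32. The largest changes were those of EHD3 (−0.54), PLAT (−0.43), EMCN (−0.29) and TEK (−0.26). In KO rats 8 of these genes were lower, led by FLT1 (−0.72), EHD3 (−0.66), KDR (−0.57) and TEK (−0.42). Their summed level was 757 to 836 and then 641 to 671 CPM in WT and 745 to 804 and then 555 to 629 CPM in KO rats. In the mesangial list 2 of 6 genes were lower and 0 higher in WT rats. In KO rats 1 was lower and 2 were higher. ITGA8, an integrin of mesangial cells, was lower by 0.77 and 0.76 on the log2 scale in WT and KO rats. The summed mesangial list overlapped between the ranges, at 124 to 142 and then 123 to 137 CPM in WT rats. In KO rats it summed to 127 to 159 and then 140 to 152 CPM. In WT rats the distal nephron list was lower in 4 of 4 tested genes, with a median of −0.43 and sums of 3709 to 4426 and then 2894 to 3558 CPM, while in KO rats 2 were lower and 1 higher and the sums overlapped (4065 to 4431 and 4033 to 4872 CPM). The parietal epithelium list summed to 81.8 to 101 and then 59.1 to 79.2 CPM in WT rats, with 1 of 4 tested genes lower, and overlapped in KO rats (101 to 123 and 101 to 134 CPM). The summed proximal tubule list went from 9653 to 11636 CPM to 11831 to 13301 CPM in WT rats but from 8237 to 8573 CPM to 6223 to 7450 CPM in KO rats. The macrophage list rose in both, from 89.3 to 120 CPM to 135 to 161 CPM in WT and from 147 to 164 CPM to 276 to 377 CPM in KO rats, with 4 and 6 of 6 tested genes higher. Whether the share of glomeruli in the tissue or any of these cells bears on the podocyte genes was not tested. Without TMM the same counts held, with 5 of 8 members lower in WT rats (log2 fold changes −0.61 to −0.84) and 5 in KO rats.

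**Figure D4:**
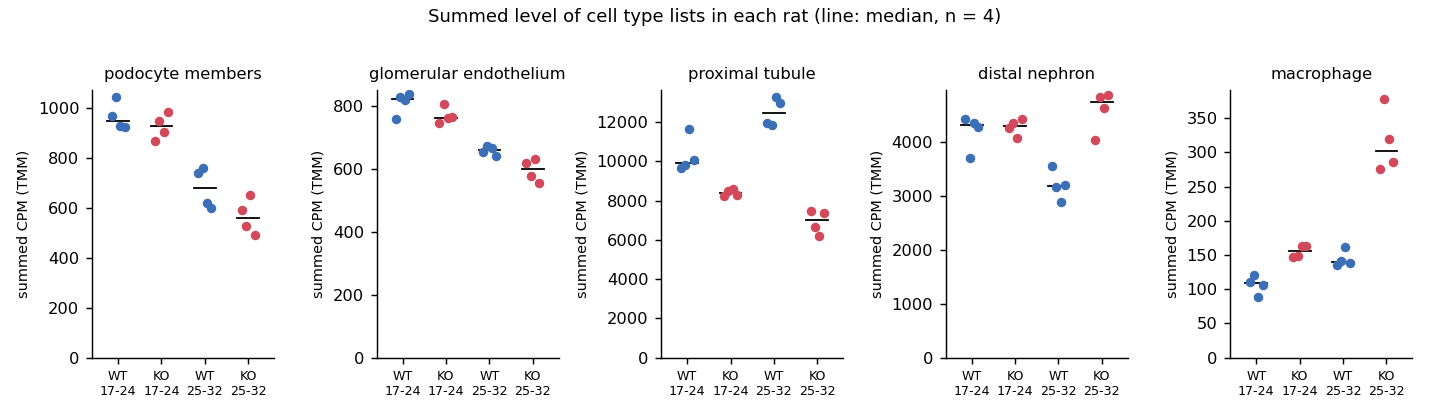
Summed CPM (TMM, y axes from 0) of 5 cell type lists in each rat by genotype (WT blue, KO red) and number range, with the median of 4 rats as a line. The podocyte members and the endothelial list (titled glomerular endothelium, but not confined to it) are lower in rats 25 to 32 of both genotypes. The proximal tubule list is higher there in WT and lower in KO rats.

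Within rats 17 to 24 no podocyte gene passed the edgeR test between genotypes. Of the 8 members 0 were called, where 7.26% of 11610 symbols were. An unadjusted p under 0.05 was found for 2 of the 8, CD2AP and WT1, and for 2456 of the 11610 symbols. CD2AP had 85.2, 90.9, 70.5 and 90.9 CPM in WT and 92.2, 95.3, 100 and 102 CPM in KO rats, which did not overlap, and its log2 fold change was 0.22 (SE 0.078, adjusted p = 0.123). WT1 differed by −0.22 (adjusted p = 0.197), and it was called when WT rat 21 was left out (−0.30, adjusted p = 0.0445). NPHS1 differed by −0.094 (interval −0.26 to 0.068), PODXL by −0.059 (interval −0.18 to 0.061) and PTPRO by −0.12 (interval −0.25 to 0.016). DESeq2 and limma-voom also called 0 of the 8. Of the 28 further podocyte genes 0 passed with edgeR, and 5 had an unadjusted p under 0.05.

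Within rats 25 to 32, 2 of 8 members were lower in KO rats, PODXL and PTPRO, where 43.8% of 11633 symbols passed the test, so the members' share was below that of all symbols. PODXL was at 196 to 246 CPM in KO and 247 to 302 CPM in WT rats, without overlap, or 0.784 times as high (log2 fold change −0.35, SE 0.095, adjusted p = 0.0131). PTPRO was at 85.5 to 101 CPM in KO and 98.8 to 115 CPM in WT rats, with a small overlap (−0.22, SE 0.078, adjusted p = 0.0447). The PTPRO call was lost without WT rat 25 or 27 or KO rat 26, 28 or 32 (adjusted p up to 0.123).

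Another 3 members lay near the threshold. SYNPO differed by −0.38 (SE 0.16, adjusted p = 0.0741), WT1 by −0.26 (SE 0.10, 0.0599) and TRPC6 by 0.37 (SE 0.15, 0.0661). All 3 were called when the spread was estimated over all 16 rats (adjusted p = 0.0314, 0.0398 and 0.0467), which made 5 of 8. Over all symbols, 5915 of 11839 were called in that fit. TRPC6 stood at 4.98, 5.55, 5.50 and 4.65 CPM in KO rats and at 3.64, 4.42, 4.71 and 3.22 CPM in WT rats, so that 3 KO rats lay above every WT rat. NPHS1 (−0.21, interval −0.50 to 0.082), CD2AP (−0.10, interval −0.52 to 0.31) and PLA2R1 (−0.31, interval −0.83 to 0.20) were not called.

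With read totals in place of TMM the lower calls in rats 25 to 32 were lost, PODXL at −0.19 (adjusted p = 0.181) and PTPRO at −0.054 (0.649), and TRPC6 was called higher (0.53, 0.0205). The 2 lower calls thus rest on the scaling, and the difference of TRPC6 was in the same direction on either scale. In the same rats the macrophage list summed to 276 to 377 CPM in KO against 135 to 161 CPM in WT rats and the proximal tubule list to 6223 to 7450 against 11831 to 13301 CPM. Their part was not tested.

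Of the 28 further podocyte genes, 6 were lower and 2 higher in KO rats 25 to 32, a smaller share than the 43.8% called over all symbols. COL4A4 had 37.4, 26.7, 30.5 and 22.7 CPM in KO and 96.3, 112, 75.3 and 64.9 CPM in WT rats, 0.336 times the WT level (log2 fold change −1.57, SE 0.19, adjusted p = 0.000122). COL4A3 had 30.8, 20.7, 30.9 and 15.9 CPM in KO and 80.3, 82.2, 48.1 and 39.4 CPM in WT rats (−1.34, SE 0.28, adjusted p = 0.00298). Neither gene overlapped between genotypes, and both changes were larger than those of any of the 8 members. ACTN4, the actin crosslinker mutated in familial glomerulosclerosis, changed by −0.37 (adjusted p = 0.00635), CLIC5 by −0.34 (0.0146), VEGFA by −0.35 (0.0086) and ROBO2 by −0.41 (0.0433). ITGB1 rose by 0.18 (0.0355) and AGRN by 0.19 (0.0452). The collagen chains and ACTN4 are also made by tubular cells.

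**Figure D5:**
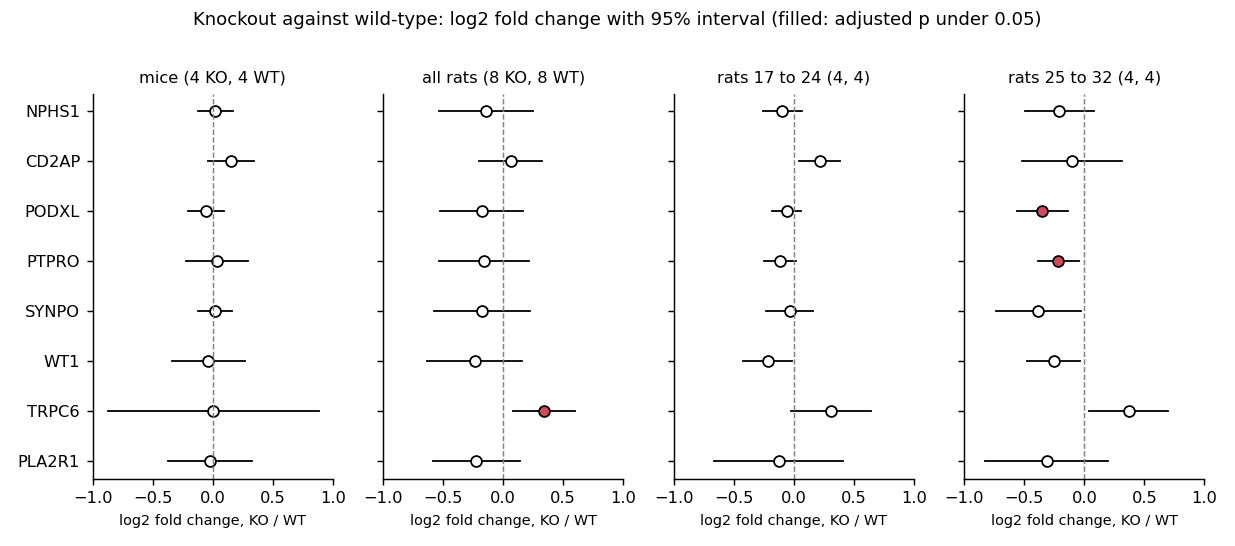
Log2 fold change of KO over WT (x axis, lines are 95% intervals) for the 8 members in mice, all rats, rats 17 to 24 and rats 25 to 32, with filled points at an adjusted p under 0.05. TRPC6 is filled for all rats and PODXL and PTPRO for rats 25 to 32; no point is filled for mice or rats 17 to 24.

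The difference of the KO change between the ranges was itself tested, as an interaction in edgeR. Of 8 members 0 passed, where 14.7% of 11839 symbols did, and limma-voom also called 0. An unadjusted p under 0.05 was found for 1 of 8, PODXL, and for 3835 of the 11839 symbols. PODXL came nearest, with a difference of −0.29 (SE 0.11, adjusted p = 0.0817), and was called without WT rat 31 (adjusted p = 0.0441) or KO rat 30 (0.0223). SYNPO differed by −0.34 (0.243) and CD2AP by −0.32 (0.342), and the other 5 by −0.19 to 0.064. Of the further podocyte genes COL4A4 (−1.16, SE 0.25, adjusted p = 0.00748) and ACTN4 (−0.30, SE 0.098, 0.0497) passed.

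Between the species 0 of 8 members differed in their response to the knockout, where 2.02% of 10663 symbols did (limma interaction). An unadjusted p under 0.05 was found for 0 of the 8 and for 1704 of the 10663 symbols, and edgeR also called 0. The differences, rat minus mouse, ran from −0.21 for PLA2R1 to 0.36 for TRPC6. The intervals were wide: −0.72 to 0.44 for NPHS1, −0.63 to 0.39 for PODXL and −0.29 to 1.02 for TRPC6. This fit did not include the rat number range, so the differences between ranges described above were part of its spread. CTNS differed by 1.28 (adjusted p = 1.89e-06).

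After the mean of each genotype and number range was taken off, the genes whose log2 level was most like NPHS1 over the 16 rats were NBEAL2 (Pearson r = 0.979), MYOZ3 and SYNPO (0.936 each, from the same reads), CHST11 (0.912) and LRP5 (0.912), among 10819 symbols. PODXL (0.892) and PTPRO (0.878) ranked 12 and 23, CD2AP (0.769) ranked 343, WT1 (0.254) 3749, TRPC6 (0.0758) 4887 and PLA2R1 (−0.17) 6591. In the 8 mice the closest were TLDC2 (0.98), IFT140 (0.978), ZFP2 (0.958), MCM4 (0.953) and APOLD1 (0.953) among 12495 symbols. PODXL (0.842) ranked 151, PTPRO (0.809) 241, CD2AP (0.727) 622, SYNPO (0.223) 4768 and WT1 (−0.0436) 7318, while TRPC6 was under the minimum of 1 CPM set for this ranking. PODXL and PTPRO thus varied with NPHS1 from animal to animal in either species, and WT1 did not. The points share libraries and scaling, and the correlations are descriptions.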

How the data were processed

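RNA was taken from kidney tissue of 8 mice and 16 rats and sequenced as stranded mRNA libraries with paired reads. Per the labels, the submitters' processing notes name bcl2fastq 2.20, STAR 2.7.3, DESeq2 1.24.0 and R 3.6.1, with builds mm10 and rn5, without their roles; the annotation, the counting and its use of strand are not given in the sources used here. For mice the authors deposited a scaled signal, which the values show to be (reads + 0.5) over the library's 75th percentile plus 0.5. For rats the authors deposited estimated counts, reads with a constant of 0.167 added, which was taken off before rounding to whole numbers. With a tolerance of 0.01, 99.0% of mouse and 97.7% of rat values were whole reads, and all those of the 8 members were.

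Symbols are given in capitals as deposited. For mice, limma 3.58.1 with its trend and robust settings was run on log2 of the deposited value, over symbols with a mean of at least 10 recovered reads. For rats, the quasi-likelihood test of edgeR 4.0.16 (TMM, filterByExpr) was run on genotype alone, over all rats and within each number range, and differences between the ranges came from 1 fit with 4 groups. The species were compared with limma on log2 scaled values of the shared symbols, without the number range. DESeq2 1.42.0 and limma-voom were alternatives. P-values were two-sided and adjusted over all symbols tested by the Benjamini-Hochberg method, and a call is an adjusted p under 0.05. Steps were tested on simulated data. The members and lists were chosen with earlier results of these data known. Replicates are separate animals.

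Genes were named by rule: CTNS, the members, at most 4 called genes per list and comparison with the largest change, and the 5 genes most like NPHS1. Some genes of the lists are counted but not reported here by name.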

Additional observations from a re-analysis of the deposited data

Results flagged for a closer look

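PODXL in WT rat 19 stood at 402 CPM, apart from the other 3 WT rats 17 to 24, which lay between 379 and 381 CPM. CD2AP in WT mouse 2 stood at 2.86, apart from the other 3 WT mice at 2.26 to 2.29. These were the 2 groups of 64 tested in which 1 animal lay far from the rest, and chance alone marks about 1 group in 20. The change of ACTN4 with the knockout differed between the rat number ranges by −0.30 and that of COL4A4 by −1.16 on the log2 scale, each with a test of the difference. The change of CTNS differed between rat and mouse by 1.28, also by a test of the difference.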

How the results depend on the processing

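The 5 podocyte members lower in rats 25 to 32 were called in either genotype under limma-voom, DESeq2 size factors and read totals alone, all tried after the data had been seen, and leaving out 1 rat gave 4 to 5 calls in WT and 5 to 6 in KO rats. The KO change was less stable. For all rats the calls numbered 0 with limma-voom, 0 with no filter, 4 with the number range as a covariate, and 0 to 1 when 1 rat was left out. With that covariate 4443 of 11584 symbols were called. For rats 25 to 32 the members called numbered 5 in 1 fit over all 16 rats, 4 with DESeq2, 1 with read totals alone and 1 to 4 with 1 rat left out. Over all symbols, 5915 of 11839 were called in that fit, 5437 of 13164 with DESeq2 and 5387 of 11633 with read totals. Left-out rats gave 0 to 1 members called in rats 17 to 24 and 0 to 1 for the difference between ranges. Of all mouse symbols 751 passed with log2(value + 1) and no filter, and 638 to 1405 with 1 mouse left out. Symbol counts ranged from 504 to 930 in rats 17 to 24, from 1010 to 2392 for the difference between ranges (2656 with read totals, 2309 higher and 347 lower) and from 117 to 307 between species. Signs changed only for members not called. In mice TRPC6 became −0.00021 with log2(value + 1) and −0.0017 with log2(value + 0.1), and SYNPO −0.00011 with DESeq2. With read totals CD2AP became 0.058 in rats 25 to 32, PLA2R1 −0.095 between ranges in WT rats, and the difference of the KO change 0.034 for NPHS1, 0.11 for WT1 and 0.050 for PTPRO. With 1 animal left out, mouse changes ran from −0.022 to 0.068 (NPHS1), −0.0097 to 0.058 (SYNPO), −0.14 to 0.078 (WT1), −0.095 to 0.072 (PLA2R1), −0.20 to 0.29 (TRPC6) and −0.049 to 0.13 (PTPRO). In rats 17 to 24 they ran from −0.10 to 0.056 (SYNPO) and −0.34 to 0.061 (PLA2R1), and in rats 25 to 32 from −0.24 to 0.036 (CD2AP). For the difference between ranges they ran from −0.12 to 0.050 (WT1), −0.37 to 0.024 (PLA2R1) and −0.023 to 0.19 (TRPC6). Between ranges they ran from −0.053 to 0.12 (PLA2R1, WT), −0.16 to 0.030 (CD2AP, WT) and −0.34 to 0.062 (PLA2R1, KO), and between species from −0.16 to 0.022 (CD2AP). The causes were not tested, save that leaving out an animal leaves fewer samples. Of the other settings 243 of the members' changes kept direction and side of the threshold, and 831 with 1 animal left out. Depth limits TRPC6 in mice and PLA2R1 in rats most. No paired analysis was run, because the labels do not say which animals were littermates of each other.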
